A study of Mus musculus with 8 samples.

Results

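The genes described here are 6 angiogenic ligands (Vegfa, Vegfb, Vegfc, Dll4, Apln and Angpt2) and 4 angiogenic receptors (Nrp1, Kdr, Flt1 and Tek), taken by gene symbol from tables of 24028 genes, in which all 10 were found. They were measured by bulk RNA sequencing in 8 tumours of TRAMP-C2, a prostate adenocarcinoma line from a TRAMP transgenic mouse. These cells (1 M per host) had been placed in the dorsolateral prostate of immune-competent, syngeneic C57BL/6 males, and the tumours were harvested after 30 to 45 days. Of those sequenced, 4 grew in aged hosts of 20 to 24 months (of 19 injected) and 4 in young hosts of 4 months (of 20 injected). Each tumour is named by its host group and the mouse number of its label. The sources used here do not say how these 8 were chosen or on which day each was taken. All tumours come from 1 cell line, and each value sums the RNA of the line and of the host cells in the tumour, vessels included.

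Blood vessels sprout toward growth factors that bind receptors on endothelial cells. Vegfa, which cells short of oxygen secrete, acts through Kdr (VEGFR2), while Flt1 (VEGFR1) binds Vegfa and Vegfb with little signalling of its own and acts largely as a sink. Nrp1 is a co-receptor that strengthens Vegfa signalling through Kdr and is also found on many cells that are not endothelial. In endothelial cells that lead a sprout, Vegfa induces the Notch ligand Dll4, which restrains sprouting by the neighbouring cells. Angpt2 is made by activated endothelium and competes with Angpt1 for Tek (Tie2), and apelin, the product of Apln, marks sprouting endothelium and is also made by other cells.

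The stretches just before the transcription starts of Vegfa, Dll4 and Apln are shown because these 3 ligands had the most negative fold changes of the 6 in tumours of aged hosts. Each runs 5′ to 3′ for 250 bases up to the start (RefSeq, GRCm38.p6). Capitals mark the cores of the hypoxia response element (ACGTG or GCGTG) and the GC box (GGGCGG), searched on both strands, so that CACGC is GCGTG read on the other strand. The Vegfa stretch lies on the minus strand at chr17:46032378-46032627, the Dll4 stretch on the plus strand at chr2:119325534-119325783 and the Apln stretch on the minus strand at chrX:48034854-48035103.
Vegfa: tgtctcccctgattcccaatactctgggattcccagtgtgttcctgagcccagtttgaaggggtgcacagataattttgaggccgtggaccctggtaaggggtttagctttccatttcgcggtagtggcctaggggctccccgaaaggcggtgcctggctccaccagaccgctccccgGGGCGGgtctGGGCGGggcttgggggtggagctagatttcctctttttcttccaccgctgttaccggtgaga
Dll4: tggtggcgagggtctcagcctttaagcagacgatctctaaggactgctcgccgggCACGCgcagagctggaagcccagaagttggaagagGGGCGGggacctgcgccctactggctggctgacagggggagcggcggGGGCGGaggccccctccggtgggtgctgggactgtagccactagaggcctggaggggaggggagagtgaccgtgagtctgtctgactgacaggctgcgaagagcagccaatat
Apln: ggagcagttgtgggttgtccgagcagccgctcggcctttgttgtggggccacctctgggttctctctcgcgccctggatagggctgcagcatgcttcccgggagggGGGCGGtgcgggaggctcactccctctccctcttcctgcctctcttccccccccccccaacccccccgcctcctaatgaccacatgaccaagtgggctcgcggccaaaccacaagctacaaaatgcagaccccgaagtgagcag
In these windows a hypoxia core was found once in Dll4 and not in Vegfa or Apln, and GC boxes were found in all 3, with 2 in Vegfa, 2 in Dll4 and 1 in Apln. None of the marked motifs overlapped another. Among 32851 such windows of all genes, 38.6% held a hypoxia core and 32.7% a GC box. The windows of Nrp1, Flt1, Kdr and Vegfb held a hypoxia core, and those of Vegfc and Tek did not. A second Vegfa window, within the gene, held hypoxia cores on each strand. The windows of Kdr, Flt1 and Nrp1 also lay within the annotated bounds of their genes, and that of Tek lay partly within. The Kdr window overlapped exons of Kdr. The core that the Notch partner Rbpj binds, searched as GTGGGAA, was in the Kdr window (5.42% of all windows), where it overlaps a hypoxia core, and CCGGAAG, an Ets-type core, in none of the windows of these genes (6.91%). Angpt2 had no entry. A match is a description of letters and not a binding site.

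The libraries held 27.1 to 35.7 M fragments, and the members were covered by 207 (Dll4 in aged 51) to 8587 fragments (Nrp1 in young 43), so counting error was at most 6.95% of a value. Endothelial cells were present in every tumour by their markers, with Pecam1 at 60.8 to 134 FPM (fragments per 1 M fragments counted in genes, the authors' deposited value) and Cdh5 at 63.3 to 103 FPM. The epithelial marker Epcam stood at 8.67 to 69.4 FPM in aged tumours and at 0.700 to 52.5 FPM in young tumours, the lowest in young 43, where Cdh1 was at 2.83 FPM. Secretory transcripts of the seminal vesicle (7 genes) summed to 21249 FPM in aged 50 and 36946 FPM in young 36, against 0.554 to 17.1 FPM in the other 6 tumours, with Svs1, Svs3a, Svs3b and Svs6 at 0 in some. Skeletal muscle transcripts summed to 157 FPM in aged 51, against at most 39.3 FPM elsewhere. Secretory transcripts of the prostate (7 genes) summed to 4974 FPM in aged 50, 11156 FPM in young 37 and 1291 FPM in young 36, against 6.13 to 203 FPM in the other 5 tumours, with Msmb at 0 in some. The part of these tissues in the members' values was not tested. The labels give no batch.

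Of the 10 genes, Vegfa, Vegfc, Dll4, Apln and the co-receptor Nrp1 had lower values in aged tumours with an unadjusted p under 0.05, while Vegfb, Angpt2, Kdr, Flt1 and Tek did not reach it in either direction. For the first 5, group means in aged tumours were 0.58 to 0.775 times those in young tumours. With edgeR's quasi-likelihood test and Benjamini-Hochberg adjustment, 0 of the 10 members and 0 of the 14575 genes tested (0%) passed 0.05. At an unadjusted p under 0.05, edgeR counted 728 of all genes (4.99%), of which 387 were lower (2.66%) and 341 higher in aged tumours (2.34%). DESeq2 called 43 genes (0.295%), Nrp1 among them, and limma voom with sample weights called 9 (0.0617%), Vegfa among them.

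**Figure D1:**
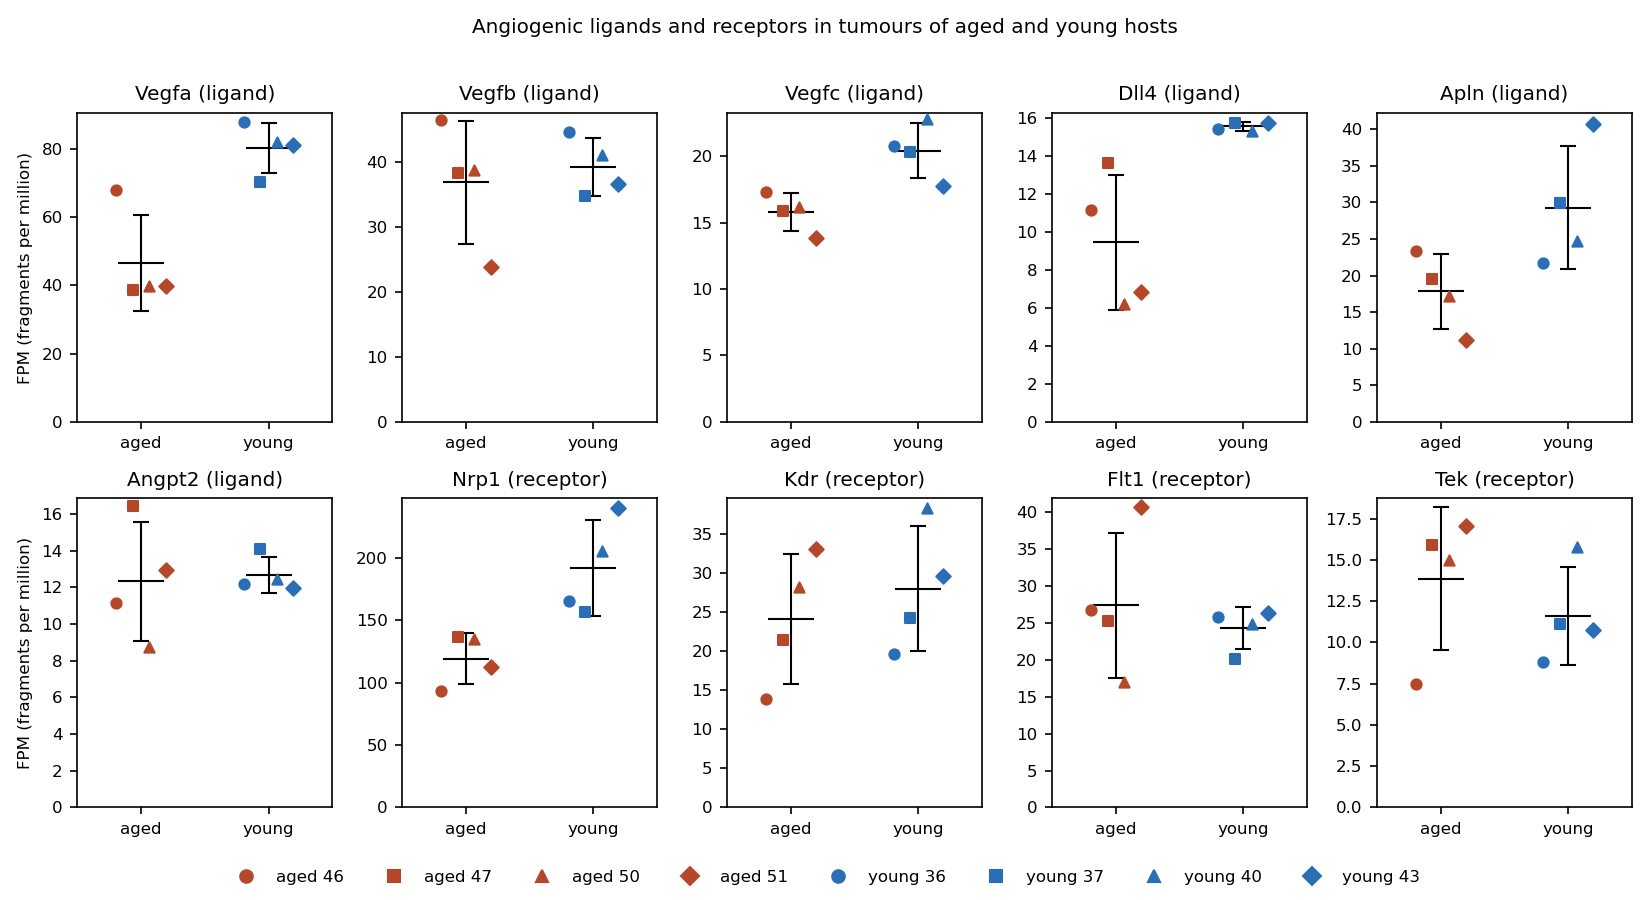
FPM of each ligand and receptor in the 4 aged and 4 young tumours, with 1 marker per tumour and the mean and SD of each group as bars. Vegfa, Vegfc, Dll4 and Nrp1 do not overlap between the groups, aged 46 lies above the other aged tumours for Vegfa, and the 4 young tumours lie close together for Dll4.

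Vegfa, the main growth factor of vessels (Entrez 22339, GRCm38 chromosome 17, 46016993 to 46032377), had 67.8, 38.7, 39.9 and 39.8 FPM in aged 46, 47, 50 and 51, against 87.7, 70.3, 81.9 and 81.0 FPM in young 36, 37, 40 and 43. All aged tumours lay below all young ones, although aged 46 came within a few FPM of young 37 and the other 3 aged tumours stood close together. The means were 46.6 ± 14.2 FPM in aged and 80.2 ± 7.25 FPM in young tumours (SD, n = 4 each). The log2 fold change was -0.76 ± 0.22 (SE), with an edgeR adjusted p of 0.923 (unadjusted 0.00681). By voom, which gave aged 46 a weight of 0.324 and aged 47 one of 4.86, it was -1.06 (adjusted p = 0.0336). Over the alternatives the adjusted p ran from 0.0336 to 0.999. After TMM scaling, Vegfa in aged 46 lay just above young 37 (6.16 against 6.14 log2 CPM), so that the groups then overlapped.

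Vegfc (Entrez 22341, chromosome 8, 54077532 to 54186454), the growth factor of lymphatic vessels, had 17.3, 15.9, 16.2 and 13.9 FPM in aged 46, 47, 50 and 51, against 20.8, 20.3, 22.8 and 17.8 FPM in young 36, 37, 40 and 43. The groups did not overlap in FPM, with less than 1 FPM between aged 46 and young 43, and they overlapped after TMM scaling. The log2 fold change was -0.35 ± 0.13, with an edgeR adjusted p of 0.923 (unadjusted 0.0268). Vegfb (Entrez 22340, chromosome 19, 6982472 to 6987651), a ligand of Flt1, had 46.3, 38.3, 38.7 and 23.9 FPM in aged 46, 47, 50 and 51, against 44.5, 34.7, 41.0 and 36.5 FPM in young 36, 37, 40 and 43. Apart from aged 51, every aged value of Vegfb lay within or above the young range. Its log2 fold change was -0.08 ± 0.20 and turned to 0.066 without aged 51 and to 0.013 without young 36.

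Dll4, the Notch ligand of sprout-leading cells (Entrez 54485, chromosome 2, 119325784 to 119335666), had 11.1, 13.6, 6.20 and 6.85 FPM in aged 46, 47, 50 and 51, against 15.4, 15.7, 15.3 and 15.7 FPM in young 36, 37, 40 and 43. The young tumours were nearly alike (coefficient of variation 1.39%, below the counting error of their fragments), while the aged tumours spread 2.2-fold from lowest to highest (37.5%), and the groups did not overlap. The log2 fold change was -0.71 ± 0.25, with an edgeR adjusted p of 0.923 (unadjusted 0.0213). Exons of the gene Gm14207 on the opposite strand cover 214 of the 3852 exon bases of Dll4 in GENCODE vM21, and whether the counting used strand is not given in the sources used here. Apln (Entrez 30878, chromosome X, 48025146 to 48034853) had 23.3, 19.5, 17.3 and 11.2 FPM in aged 46, 47, 50 and 51, against 21.7, 29.9, 24.7 and 40.8 FPM in young 36, 37, 40 and 43. Aged 46 lay above young 36, and the other 3 aged tumours lay below every young one. The log2 fold change was -0.70 ± 0.26, with an edgeR adjusted p of 0.923 (unadjusted 0.0241).

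Angpt2 (Entrez 11601, chromosome 8, 18690263 to 18741562) had 11.1, 16.5, 8.73 and 13.0 FPM in aged 46, 47, 50 and 51, against 12.2, 14.1, 12.4 and 11.98 FPM in young 36, 37, 40 and 43. The young range lay inside the aged range. The log2 fold change was -0.03 ± 0.20 (edgeR adjusted p = 0.989), and it turned to 0.12 without aged 50 and to 0.027 without young 37. All 6 ligands had fold changes below 0, where 44.7% of all genes tested did, but those of Vegfb and Angpt2 were near 0 and turned sign under some alternatives. An unadjusted edgeR p under 0.05 was found for 4 of them (Vegfa, Vegfc, Dll4 and Apln), where 2.66% of all genes had one with a lower value.

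Among the receptors, Nrp1 (Entrez 18186, chromosome 8, 128358591 to 128505476) stood apart from the other 3. It had 93.6, 137, 135 and 112 FPM in aged 46, 47, 50 and 51, against 165, 156, 205 and 240 FPM in young 36, 37, 40 and 43, with no overlap in FPM or after TMM scaling. The log2 fold change was -0.68 ± 0.16, the smallest p of the 10 genes, at place 34 of 14575 (edgeR adjusted p = 0.831, unadjusted 0.002). DESeq2 gave it an adjusted p of 0.0312, and over the alternatives the adjusted p ran from 0.0312 to 0.999. Leaving out each tumour in turn kept its log2 fold change between -0.76 and -0.55.

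Kdr, the main signalling receptor of Vegfa (Entrez 16542, chromosome 5, 75932827 to 75979072), had 13.9, 21.4, 28.3 and 33.1 FPM in aged 46, 47, 50 and 51, against 19.7, 24.3, 38.3 and 29.6 FPM in young 36, 37, 40 and 43. Its coefficient of variation was 34.5% in aged and 28.6% in young tumours, and its log2 fold change was -0.19 ± 0.28. With 1 tumour left out, this ran from -0.42 without aged 51 and -0.31 without young 36 to -0.025 without young 40 and -0.016 without aged 46, and it was -0.77 without aged 50, aged 51 and young 36. Flt1 (Entrez 14254, chromosome 5, 147561604 to 147726438) had 26.8, 25.2, 17.0 and 40.7 FPM in aged 46, 47, 50 and 51, against 25.8, 20.2, 24.9 and 26.3 FPM in young 36, 37, 40 and 43. The highest and the lowest value were both in aged tumours, and its log2 fold change of 0.20 ± 0.26 turned to -0.081 without aged 51. Short transcripts that encode the secreted, Vegfa-binding form of Flt1 are not separated in these gene-level counts. Tek (Entrez 21687, chromosome 4, 94739086 to 94874976) had 7.49, 15.9, 14.98 and 17.1 FPM in aged 46, 47, 50 and 51, against 8.80, 11.1, 15.8 and 10.7 FPM in young 36, 37, 40 and 43. Aged 46 was lowest of all, aged 51 highest, and the log2 fold change was 0.27 ± 0.26. It was 0.12 without aged 51, 0.18 without young 36, 0.43 without young 40 and 0.46 without aged 46, and -0.084 without aged 50, aged 51 and young 36. The edgeR adjusted p-values of Kdr, Flt1 and Tek were 0.934, 0.927 and 0.923.

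In all, 8 of the 10 members had a negative fold change, where 44.7% of all genes tested did, and 5 had an unadjusted p under 0.05 with a lower value in aged tumours, where 2.66% of all genes did. The number of members under that p was 3 without aged 50 (Vegfa, Dll4 and Nrp1), 3 without aged 51 (Vegfa, Vegfc and Nrp1) and 3 without the tumours high in seminal vesicle transcripts, aged 50 and young 36 (Vegfa, Apln and Nrp1). Without these and aged 51 it was 2, Nrp1 and Kdr, and no ligand was among them. Without young 37, highest in prostate secretory transcripts, it was 4. With aged 50, aged 51 and young 36 left out, the log2 fold change was -0.30 for Dll4, -0.49 for Vegfa, -0.25 for Vegfc and -0.53 for Apln. It was -0.78 for Nrp1 (edgeR unadjusted p = 0.0167) and -0.77 for Kdr (edgeR unadjusted p = 0.0222). The edgeR adjusted p was 0.999 for each of these genes. In FPM, 4 members did not overlap and were lower in aged tumours (1.95% of all genes), and 0 did not overlap and were higher (1.45%). After TMM scaling there were 2, Dll4 and Nrp1, both lower (2.31% of all genes, or 3.66% in either direction). Without aged 46, the highest aged tumour for Vegfa, Vegfb, Vegfc and Apln, there were 5 after that scaling. The share of all genes was not computed for that setting, and fewer tumours make a lack of overlap easier to reach. The members were chosen with earlier results on these tumours known, so these shares describe them and support nothing further.

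**Figure D2:**
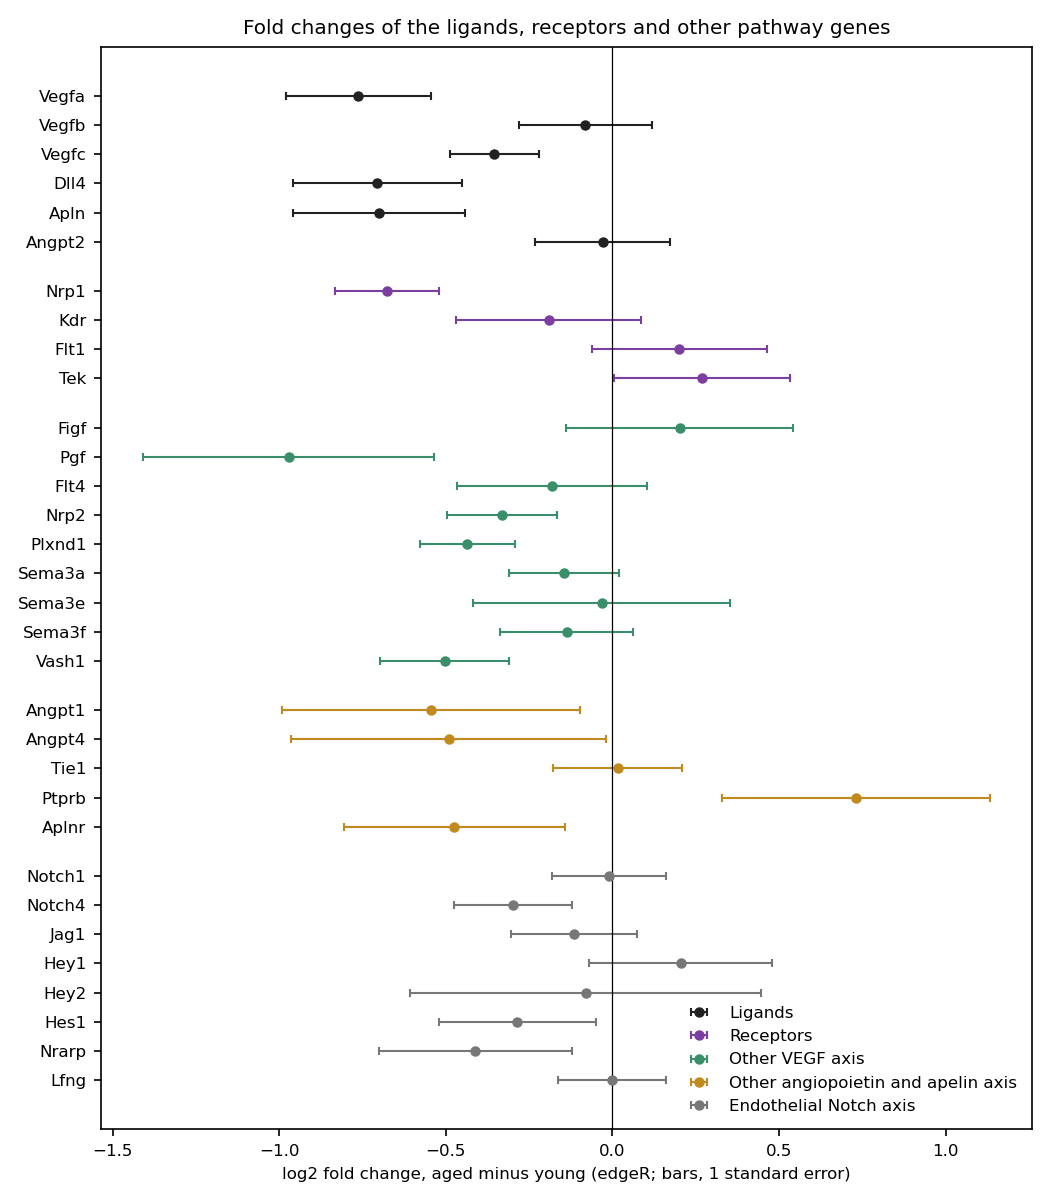
Log2 fold change, aged minus young, of the 6 ligands, 4 receptors and other genes of the same pathways, from edgeR, with bars of 1 SE. Vegfa, Dll4, Apln and Nrp1 lie between -0.76 and -0.68, while Vegfb, Angpt2, Kdr, Flt1 and Tek lie between -0.19 and 0.27.

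Set side by side, the ligands had a median log2 fold change of -0.53 and the receptors one of 0.00, against 0.03 for all genes tested. Within the receptors the median hides the gap between Nrp1 and the other 3. The ligand median minus the receptor median was -0.53. It was -0.29 by voom, -0.31 without aged 50 and young 36, and 0.15, with the opposite sign, without these and aged 51. It went to -0.18 without aged 51 alone, in which Kdr, Flt1 and Tek were at their highest among aged tumours and Vegfb, Vegfc and Apln at their lowest. The summed FPM of the 6 ligands was 177, 143, 127 and 109 in aged 46, 47, 50 and 51, against 202, 185, 198 and 204 in young 36, 37, 40 and 43. That of the 4 receptors was 142, 199, 195 and 203 in the same aged tumours, against 220, 212, 284 and 307 in the young ones. In FPM both sums were lower in every aged tumour than in any young one, and Nrp1 makes up most of the receptor sum. After TMM scaling both sums overlap between the groups, since aged 46 (ligands) and aged 51 (receptors) then lie just above young 37.

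The aged tumours differed among themselves. Aged 46 had the highest Vegfa, Vegfb, Vegfc and Apln of its group together with the lowest Nrp1, Kdr and Tek. Aged 51 had the opposite pattern, with the lowest Vegfb, Vegfc and Apln and the highest Kdr, Flt1 and Tek, and aged 50 had the lowest Dll4, Angpt2 and Flt1. The young tumours were closer to each other for 7 of the 10 genes by the coefficient of variation, the exceptions being Vegfc, Apln and Nrp1.

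**Figure D3:**
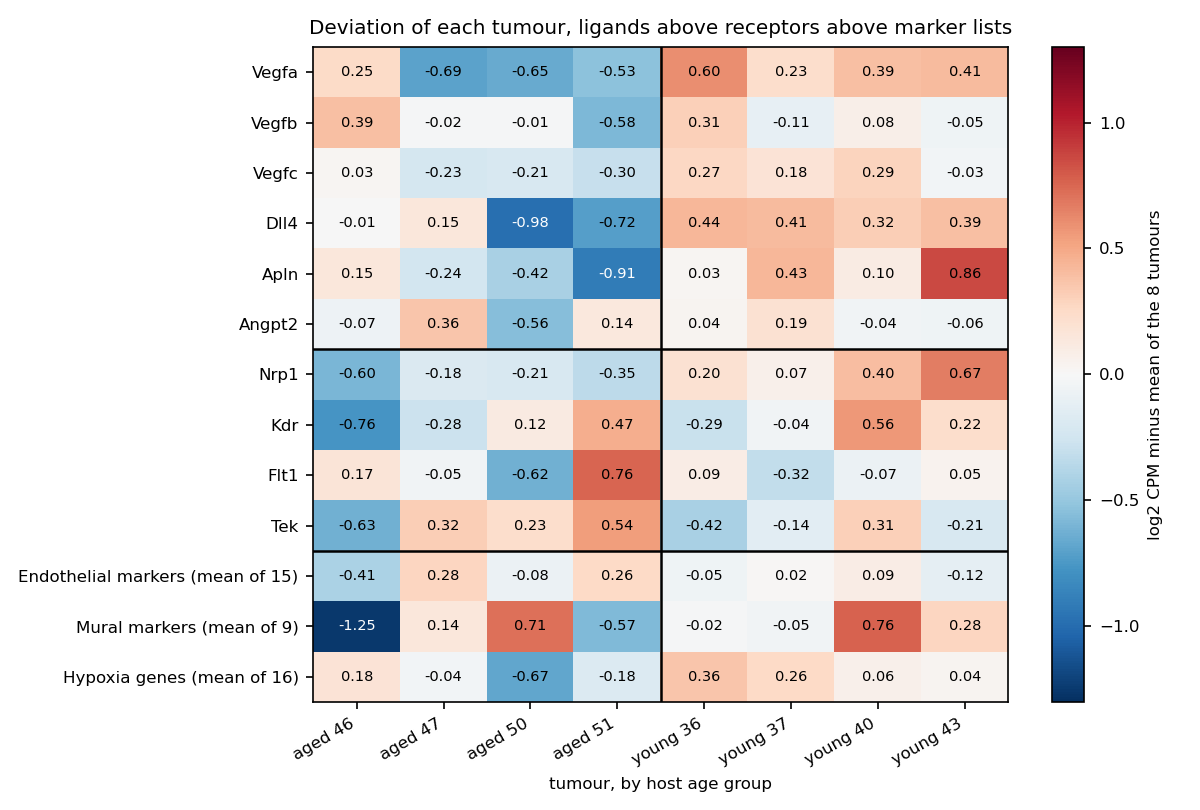
Log2 CPM of each member (TMM-scaled) and the mean log2 CPM of 3 marker lists, each minus its mean over the 8 tumours, with red above and blue below that mean. The young columns are positive for Vegfa, Dll4, Apln and Nrp1, and aged 46 is low for Nrp1 (-0.60), Kdr (-0.76), Tek (-0.63) and the mural markers (-1.25).

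Levels can be compared between genes only per transcript length, for which the authors' FPKM (FPM per kilobase of the length in their table) was used. Vegfb was the most abundant member with a mean of 28.7 ± 7.32 FPKM in aged tumours, against 30.5 ± 3.45 FPKM in young tumours (SD, n = 4 each). Nrp1 had 11.9 ± 2.02 FPKM in aged and 19.1 ± 3.85 FPKM in young tumours. Vegfa had 10.7 ± 3.24 FPKM in aged and 18.4 ± 1.66 FPKM in young tumours, and these neighbours overlapped in each group. Vegfc had 8.41 ± 0.764 FPKM in aged and 10.8 ± 1.1 FPKM in young tumours, and Apln 5.66 ± 1.61 FPKM in aged and 9.3 ± 2.66 FPKM in young tumours. The last 5 lay close together in aged tumours, from Flt1 at 3.69 ± 1.32 FPKM down to Dll4 at 2.74 ± 1.03 FPKM, and their ranges overlapped. In young tumours Dll4 led these 5 with 4.5 ± 0.0626 FPKM, against 3.56 ± 0.275 for Angpt2, 3.27 ± 0.935 for Kdr, 3.27 ± 0.378 for Flt1 and 2.47 ± 0.629 for Tek. By median FPKM over the 8 tumours, Vegfb lay above 83.7% of the tested genes and Tek above 32.1%.

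Ratios of ligand to receptor within a tumour remove the scaling of the library. The 13 FPKM ratios computed include Angpt2 to Angpt1, Kdr to Flt1 and Nrp1 to Kdr, which are not ligand to receptor. The groups did not overlap for 1 of the 13, Vegfa to Flt1, and the share of such ratios among other gene pairs was not computed. Vegfa to Flt1 was 4.31, 2.61, 3.99 and 1.67 in aged 46, 47, 50 and 51, against 5.78, 5.93, 5.60 and 5.24 in young 36, 37, 40 and 43. The young tumours held a narrow range and every aged tumour lay below it. Vegfa to Kdr was 9.53 in aged 46, the highest of all tumours, and 3.54, 2.76 and 2.36 in aged 47, 50 and 51, against 4.18 to 8.72 in young tumours. Vegfa to Nrp1 was 0.955 ± 0.481 in aged tumours, against 0.988 ± 0.188 in young tumours (SD, n = 4 each). Dll4 to Notch1, which encodes one of its receptors, was 0.916 ± 0.416 in aged and 1.43 ± 0.24 in young tumours, and aged 46 at 1.36 lay inside the young range of 1.2 to 1.67. Angpt2 to Tek was 1.28 ± 0.521 in aged and 1.51 ± 0.341 in young tumours, and Apln to Aplnr, its receptor gene, 1.14 ± 0.492 in aged and 1.29 ± 0.485 in young tumours. Since the members were chosen with results known, no test is given for the ratios.

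**Figure D4:**
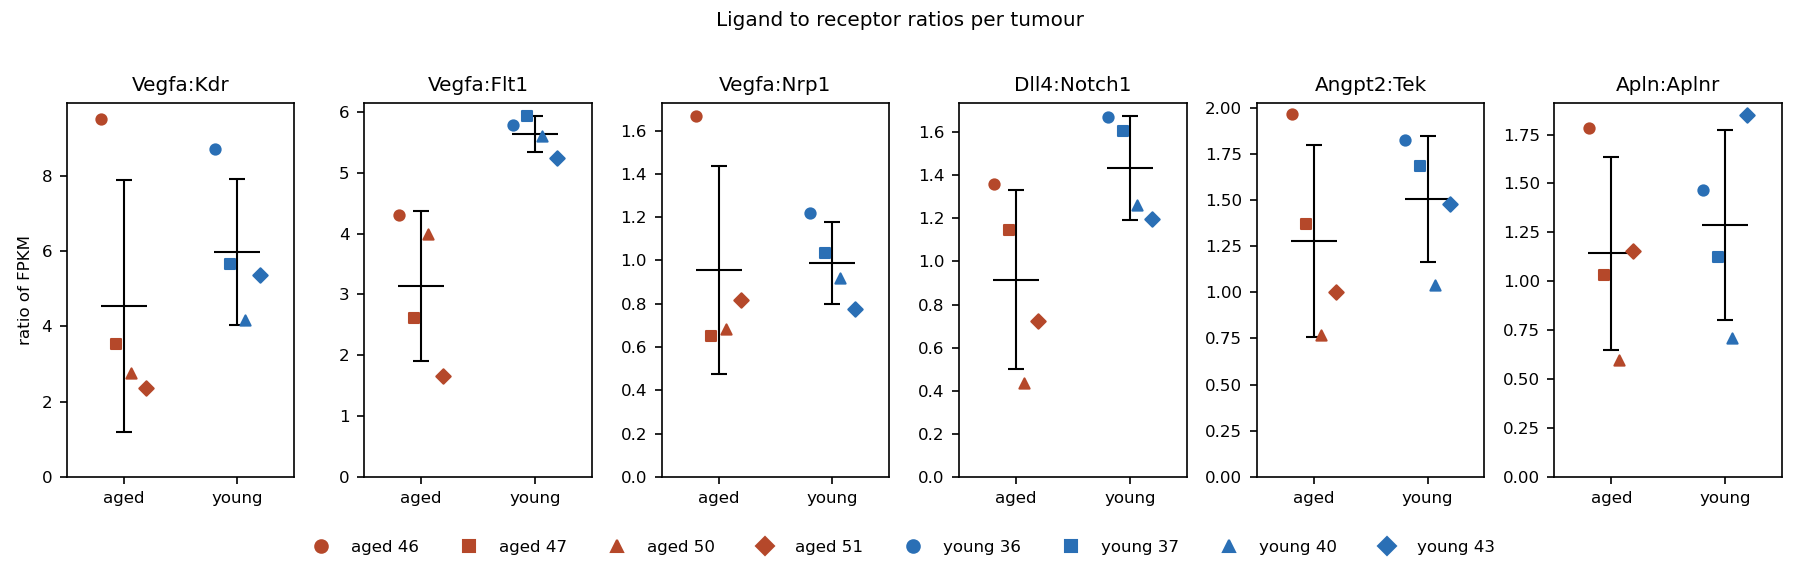
Ratio of FPKM of a ligand to that of its receptor in each tumour, aged left of young, with the mean and SD of each group. Vegfa to Flt1 is at most 4.31 in aged tumours and at least 5.24 in young tumours, whereas aged 46 has the highest Vegfa to Kdr, Vegfa to Nrp1 and Angpt2 to Tek ratios.

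Other genes of the same pathways had mostly lower values in aged tumours, and 0 of them passed edgeR's test. Of all genes tested, 44.7% were lower, and 2.66% were lower with an unadjusted edgeR p under 0.05. The lists were also chosen with earlier results of these data known. Their counts here and below describe them and support nothing further. Of 9 other VEGF-axis genes 8 were lower (median log2 fold change -0.18), and 2 had an unadjusted p under 0.05. These were Plxnd1, a semaphorin receptor of endothelium (-0.44 ± 0.14, edgeR adjusted p = 0.923), and Vash1, a feedback inhibitor that endothelium makes (-0.50 ± 0.19, adjusted p = 0.923). Pgf, placental growth factor and a ligand of Flt1, had 5.48, 6.95, 2.95 and 4.20 FPM in aged 46, 47, 50 and 51, against 11.9, 15.5, 6.79 and 4.25 FPM in young 36, 37, 40 and 43 (-0.97 ± 0.44). Flt4, the receptor of Vegfc, had -0.18 ± 0.29, and Nrp2, its co-receptor, -0.33 ± 0.17. Figf, a further VEGF ligand and the 1 gene of this list that was higher, had 0.20 ± 0.34.

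Of 5 tested genes of the angiopoietin and apelin axes 3 were lower (median -0.48) and none had an unadjusted p under 0.05. Angpt1, the activating ligand of Tek, had -0.54 ± 0.45 and Aplnr -0.48 ± 0.33. Tie1, the partner of Tek, had 0.02 ± 0.19, and Ptprb, a phosphatase that dampens Tek signalling, 0.73 ± 0.40, with aged 51 at 83.9 FPM and the other 7 tumours at 18.6 to 38.5 FPM. Apela, the other ligand of the apelin receptor, was too low to be tested. Of 8 endothelial Notch genes 7 were lower (median -0.10), against 44.7% of all genes, also with none under an unadjusted p of 0.05. The receptor genes Notch1 and Notch4 had -0.01 ± 0.17 and -0.30 ± 0.18, and the Notch targets Nrarp and Hes1 -0.41 ± 0.29 and -0.29 ± 0.24. Hey1 and Hey2, Notch targets on the same list, had 0.20 ± 0.28 and -0.08 ± 0.53.

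Among 8 genes listed for sprouting cells 7 were lower (median -0.46), and 2 had an unadjusted p under 0.05. Of all genes, 44.7% were lower and 2.66% were lower with such a p. Which cells of the tumour gave these values was not tested. Pdgfb, which sprouting endothelium secretes to recruit mural cells, had 14.3, 21.7, 19.8 and 11.8 FPM in aged 46, 47, 50 and 51, against 27.9, 28.1, 31.9 and 31.5 FPM in young 36, 37, 40 and 43. The groups did not overlap, and its log2 fold change was -0.82 ± 0.17 (edgeR adjusted p = 0.773, unadjusted 0.001, DESeq2 adjusted p = 0.0128). Mcam, an adhesion molecule of vessel walls, had -0.40 ± 0.16 and Igfbp3, an IGF-binding protein, -0.56 ± 0.25. All 8 angiogenesis inhibitors were lower too (median -0.33), led by Col18a1, the collagen from which endostatin is cut (-0.56 ± 0.18, edgeR adjusted p = 0.923), and by Serpinf1 (-0.48 ± 0.25) and Adamts1 (-0.45 ± 0.25).

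The endothelial markers were split in direction. Of 15, 7 were lower and 8 higher (median log2 fold change 0.06), all 15 were detected in every tumour, and their summed FPM was 396 to 673 in aged and 516 to 609 in young tumours. Pecam1 had 0.11 ± 0.23 and Cdh5 -0.16 ± 0.15, while Vwf, the von Willebrand factor stored by endothelium, had 0.95 ± 0.29 (edgeR adjusted p = 0.923, unadjusted 0.00948). Ecscr and Sox17 had -0.28 ± 0.18 and 0.46 ± 0.38. Set against the mean of these markers in the same tumour, Nrp1 was 2.27 ± 0.227 log2 units higher in aged and 2.97 ± 0.31 higher in young tumours (SD, n = 4 each), with no overlap, and the other 9 members overlapped. The share of all genes with no overlap on this scale was not computed. Dll4 on this scale was at -1.44 ± 0.66 in aged and -0.63 ± 0.13 in young tumours. In bulk tissue, fewer cells of a type and less RNA per cell cannot be told apart.

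Mural cell markers, the genes of pericytes and smooth muscle, were lower in 6 of 9 cases (median -0.26), against 44.7% of all genes. Of the 9, 3 were lower with an unadjusted p under 0.05, against 2.66% of all genes. All 9 were detected in every tumour, and their summed FPM was 254 (aged 46) to 1228 (aged 50) in aged and 583 to 1060 in young tumours. Pdgfrb, the receptor of Pdgfb, named after its values were seen, had 75.9 to 159 FPM in aged and 183 to 266 FPM in young tumours. Its log2 fold change was -0.88 ± 0.20 (edgeR adjusted p = 0.831, DESeq2 adjusted p = 0.0239, voom adjusted p = 0.106). Fibroblast markers summed to 5814 to 13766 FPM in aged and 10587 to 18410 FPM in young tumours, with 6 of 7 lower and all 7 detected in every tumour. Their part in the values of Nrp1, which such cells can also express, was not tested.

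The hypoxia list holds the HIF factors and genes they are known to induce. Of 16 genes 11 were lower in aged tumours (median -0.31), against 44.7% of all genes. An unadjusted p under 0.05 was found for 4, all lower, against 2.66% of all genes. The mean of the 16 was 6.30 ± 0.36 log2 CPM in aged and 6.66 ± 0.15 log2 CPM in young tumours (SD, n = 4 each). Hif1a had -0.38 ± 0.15, Epas1 (HIF-2α) 0.72 ± 0.38, and Hk2, a hexokinase gene, -0.75 ± 0.19. P4ha1, a collagen prolyl hydroxylase gene, had -0.73 ± 0.11 (edgeR adjusted p = 0.738, and called by DESeq2 and voom). The list mean was lowest in aged 50 (5.8 log2 CPM) and highest in young 36 (6.83 log2 CPM).

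Each member was compared over the 8 tumours with the mean of the endothelial list and with that of the hypoxia list, which makes 20 relations with exact permutation p-values (40320 pairings). None passed after Benjamini-Hochberg adjustment. The smallest p with the endothelial markers was that of Tek (Pearson r = 0.853, exact permutation p = 0.00528, adjusted 0.0528, Spearman rho = 0.857, exact permutation p = 0.0107, adjusted 0.14), with r = 0.754 without aged 46 and aged 47 and r = 0.874 with each host group centred on its own mean. With the hypoxia list it was that of Dll4 (Pearson r = 0.877, exact permutation p = 0.0043, adjusted 0.0528, Spearman rho = 0.833, exact permutation p = 0.0154, adjusted 0.14), with r = 0.708 without aged 50 and young 36 and r = 0.812 with the groups centred. Vegfa had r = 0.771 with the hypoxia list (exact permutation p = 0.00982, adjusted 0.0655, rho = 0.69, exact permutation p = 0.0694, adjusted 0.277), which was 0.693 without aged 50 and young 36 and 0.615 with the groups centred. Its relation to the endothelial list had the opposite sign (r = -0.516, exact permutation p = 0.199, adjusted 0.331, rho = -0.476, exact permutation p = 0.243, adjusted 0.442), and was -0.374 without aged 46 and aged 47 and -0.79 with the groups centred. With the groups centred, the exact permutation p was 0.0104 for Tek with the endothelial list and 0.059 for Dll4 with the hypoxia list. For Vegfa it was 0.337 with the hypoxia list and 0.099 with the endothelial list. Without the tumours named for each, these p-values were 0.0681, 0.118, 0.144 and 0.4875, in the same order. The p-values over all 8 tumours also take in the difference between host groups.

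**Figure D5:**
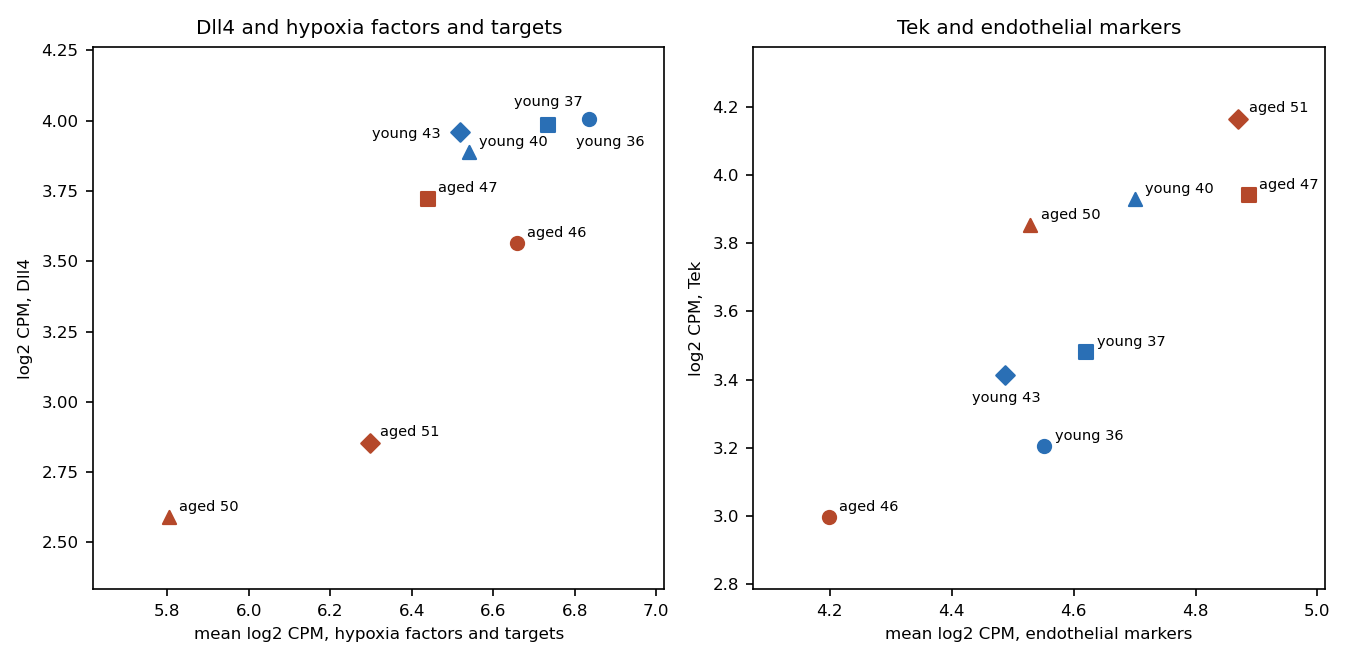
Log2 CPM of Dll4 against the mean log2 CPM of the 16 hypoxia factors and targets (left) and of Tek against that of the 15 endothelial markers (right), with 1 labelled point per tumour. Aged 50 and aged 51 lie apart at low Dll4 (2.59 and 2.86 log2 CPM), and aged 46 is lowest for Tek (2.996 log2 CPM) and for the endothelial markers (4.20 log2 CPM).

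Among the members themselves, given as a description over 8 tumours of 2 host groups, the 15 pairs of ligands had a median Pearson r of 0.543, the 6 pairs of receptors one of 0.104 and the 24 mixed pairs one of -0.125. Vegfa and Vegfc were most alike among ligands (r = 0.882, or 0.645 with the groups centred), and Kdr and Tek among receptors (0.735, or 0.894 centred). Tek and Vegfb ran most opposite (-0.768). The genes most like each member were sought among 12549 others. For Vegfa they were Hsph1 (r = 0.953), Mapk7 and Scamp3, and for Vegfc Bhlhe40 (0.941), Hnrnph3 and Hsph1. For Dll4 they were Il1rl1 (0.995), Tnfsf9 and Grem1, for Apln Coq6 (0.99), Gnb1l and Tmem39b, for Vegfb Rcl1 (0.987), Dnajc24 and Poll, and for Angpt2 Mctp1 (0.914), Sema3f and Pir. For Nrp1 they were Mtss1l (0.985), Adam17 and Kdm5b, for Kdr Col5a2 (0.969), Hps5 and Col12a1, for Flt1 Rabl6 (0.985), Zfp180 and Ghr, and for Tek Tmem204 (0.96), Sncaip and Galnt16. Correlations this high are found by searching many genes over 8 points, and no p is given for them.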

How the data were processed

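RNA of 8 tumours (4 aged, 4 young hosts) was sequenced as 50 bp read pairs on an Illumina HiSeq from TruSeq mRNA libraries, per the labels. Reads were handled with bcl2fastq, TopHat2 2.0.12 and Picard 2.7.1 on mm10 (GRCm38), per the submitters' processing notes. Which program and annotation gave the counts, and whether strand was used, is not given in the sources used here. The authors deposited per gene a raw fragment count, the fragments per 1 M counted (FPM, a CPM) and the FPKM, which divides FPM by the transcript length in the table. 27 gene symbols that had become dates were restored by Entrez number.

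From the counts, 14575 genes with enough fragments (edgeR's filterByExpr, minimum count 10, minimum total 15) were tested with edgeR 4.0.16 (R 4.3.3), TMM factors, the robust quasi-likelihood test and Benjamini-Hochberg adjustment over all of them at 0.05. Alternatives were DESeq2 1.42.0, limma 3.58.1 voom with sample weights, other scalings, no filter, and tumours left out. Log2 CPM used a prior count of 2. No 2 libraries agreed within sampling noise. Each tumour has its own mouse number, and the group tests set a difference against the spread between these tumours. 3 fragments were 0.084 to 0.111 FPM, and counting errors cover counting only.

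The members and lists were chosen with earlier results of these data known. Genes named beside the members are the 3 of each pathway list with the smallest edgeR p, fixed partners whatever their p, and the 3 genes most correlated with each member. Hey1, Hey2 and Figf were added after their values were seen.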

Additional observations from a re-analysis of the deposited data

Results flagged for a closer look

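Among 84 groups of 4 values (members, ratios and list means), 4 held a tumour far from the other 3 of its group by Dixon's criterion, and chance flags about 1 in 20 groups. Aged 46 stood low for the mean of the other angiopoietin and apelin genes, at 3.09 log2 CPM against 3.98 to 4.14 log2 CPM in the other aged tumours. It also stood low for the angiogenesis inhibitors, at 6.82 log2 CPM against 7.33 to 7.42 log2 CPM. Young 43 stood low for the log2 ratio of Angpt2 to Angpt1, at -1.56 against -0.18 to -0.03 in the other young tumours, and for the macrophage markers, at 6.38 log2 CPM against 6.76 to 6.81 log2 CPM.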

How the results depend on the processing

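No paired analysis was possible because the mouse numbers of the aged and young hosts differ. Members past an adjusted p of 0.05 were 0 with edgeR under every scaling and with each tumour left out (range 0 to 0), 1 with DESeq2 and 1 with voom, and genes called were 0 (range 0 to 0), 43 with DESeq2 and 9 with voom. The number of members with an unadjusted p under 0.05 and a lower value in aged tumours was 5, 3 to 5 with each tumour left out, 3 without aged 50 and young 36 (high in seminal vesicle transcripts), and 2 without these and aged 51 (high in muscle transcripts), of which Nrp1 is one of the 5 and Kdr is not. Members with no overlap and a lower value were 2, 4 with library size scaling and 2 to 5 with each tumour left out. Members with a lower value were 7 to 8 with each tumour left out, and 6 without aged 50 and young 36. The share of all genes with no overlap was not computed with tumours left out. The ligand median of -0.53 ranged from -0.63 to -0.43 with each tumour left out, the receptor median of 0.00 from -0.25 to 0.09, and their difference of -0.53 from -0.72 to -0.18. By voom these were -0.44, -0.15 and -0.29. Without aged 50, aged 51 and young 36 they were -0.27, -0.43 and 0.15, so that the difference turned its sign, with 2 aged tumours left. The same exclusion turned Vegfb to 0.22, Angpt2 to 0.13 and Tek to -0.084. Without aged 50 and young 36, Vegfb was 0.0066 and Angpt2 0.12. With voom Angpt2 was 0.16 and Flt1 -0.019. With 1 tumour left out, signs turned for Vegfb (-0.25 to 0.066, positive without aged 51 or young 36), Angpt2 (-0.17 to 0.12, positive without aged 50 or young 37) and Flt1 (-0.081 to 0.39, negative without aged 51). The cause of these turns was not tested. The log2 fold changes of Vegfa, Vegfc, Dll4, Apln, Nrp1 and Kdr kept their sign under all 16 alternatives. The median of all genes stayed between 0.01 and 0.05 with each tumour left out. None of the 20 correlations passed without the 2 farthest tumours or with host groups centred. Counting error was at most 6.95% of a member's value, below most of the spread between tumours.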

Other observations

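Lyve1, a marker of lymphatic endothelium and of some macrophages, had a log2 fold change of 1.17 ± 0.34 in tumours of aged hosts (edgeR adjusted p = 0.923). Of the 4 lymphatic markers tested, 3 were higher and 1 lower, with a median of 0.40, and Ccl21a was not analysed here. T cell markers were higher in 5 of 6 cases (median 0.41) and their summed FPM was 11.8 to 69.9 in aged and 13.0 to 50.0 in young tumours. Macrophage markers were lower in 4 of 7 cases (median -0.23), and their summed FPM was 543 to 1040 in aged and 882 to 1115 in young tumours. Epithelial markers were higher in 5 of 6 cases (median 0.64), with summed FPM of 131 to 632 in aged and 69.8 to 419 in young tumours. None of these genes passed edgeR's test. Of all genes tested, 44.7% were lower in aged tumours.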
